A study of Mus musculus with 3 samples.

Results

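Genes of MHC class I antigen presentation were followed in T helper 1 (Th1) cells: 9 of the 50600 genes in the deposited tables, namely B2m, H2-K1, H2-D1, H2-T23, Tap1, Tap2, Tapbp, Nlrc5 and Erap1. They were chosen by symbol for their known roles, with earlier results of these data known, and all 9 were found by gene identifier. Class I molecules show short peptides from inside the cell to CD8 T cells and natural killer cells. Each complex holds a heavy chain and the light chain beta-2 microglobulin. Peptides made by the proteasome enter the endoplasmic reticulum through the TAP transporter, are trimmed by an aminopeptidase and are loaded with the help of tapasin. In T cells, NLRC5 is the main transcriptional activator of the heavy chain, B2m and Tap1 genes, and interferon gamma, the cytokine that Th1 cells secrete, induces much of the pathway.

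RNA of primary Th1 cells of the mouse strain C57BL/6NJ was sequenced in 3 libraries, numbered as biological replicates 1, 2 and 3 of a single group. Per the file headers, the sample is the 48 h point of a time course of Th1 and Th2 cells, and the labels link a CD4 T cell differentiation protocol. No cytokine dose, culture or age is given, sex was not collected, and all 3 libraries carry 1 shared donor identifier, so they are not known to be separate animals or cultures. No genotype or treatment separates them, and comparisons were therefore made between genes within a library and between the 3 libraries.

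The libraries held 4742025, 50627 and 3543816 counts in replicates 1, 2 and 3. A count of 0 allowed a level of up to 0.633, 59.3 and 0.847 CPM (counts scaled to the library total), taking 3 counts as the limit. Levels below are in TPM, a per-length measure of transcript share, with counts per gene length scaled so that each library has the same sum. Intervals are exact 95% intervals and cover counting error only. Genes that share exonic positions with a gene of the opposite strand took 52.7%, 57.8% and 72.2% of the counts in replicates 1, 2 and 3. Fragments were assigned by the strand of the first read, per the file headers, and the strand that the library kit reads is not given in the sources used here. Whether the counts of a gene come from its own strand was not tested, so the opposite-strand overlap is given for each of the 9 genes, and for other genes where it reaches 10% of their exonic length.

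All 11 T cell markers, among them Cd3e, Cd4 and Trac, were at 1 TPM or more in every library, with a summed level of 2337, 1737 and 1056 TPM. The sum includes Cd247, with 56.4% of its exonic length under opposite-strand exons. Cd8a, which defines CD8 T cells, had 0 counts in all 3 libraries. Cd8b1 had 21, 1 and 13 counts, or 6.61, 27.8 and 4.45 TPM, and so passed 1 TPM in every library. Of 7 B cell markers only Ighm reached 1 TPM in every library. Cd79a had 10, 0 and 22 counts, the other 5 had at most 4 in a library, among them Ms4a1 and Pax5 with 0, and the summed level was 104, 30.1 and 55.04 TPM. Of 11 macrophage and dendritic cell markers only Csf1r did, with 17.8% of its exonic length under opposite-strand exons, while Cd68 had 12, 0 and 5 counts and the other 9 had at most 6 in a library, among them Adgre1, Lyz2 and Flt3 with 0. The summed level of that list was 112, 84.5 and 170 TPM, most of it from Csf1r. Of 5 natural killer cell markers only Eomes did, and the other 4 had 0 counts.

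The promoters of the heavy chain genes show where the class I regulators are known to act, and 7 of the 9 genes matched a RefSeq promoter window of 300 bases (build GRCm38.p6, the mm10 assembly). The upstream stretch of H2-K1 is at chr17:34000348-34000469 on the minus strand, from 122 bases to 1 base before its more upstream start site. The B2m stretch is at chr2:122147536-122147650 on the plus strand, from 151 to 37 bases before the start site. Both lie outside the exons of these genes in the later GENCODE M21 annotation. They are printed 5′ to 3′ on the gene's strand, with matches to the motifs searched in capitals.
H2-K1: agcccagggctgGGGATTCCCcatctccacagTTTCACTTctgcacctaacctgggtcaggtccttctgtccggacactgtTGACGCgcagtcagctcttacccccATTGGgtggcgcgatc
B2m: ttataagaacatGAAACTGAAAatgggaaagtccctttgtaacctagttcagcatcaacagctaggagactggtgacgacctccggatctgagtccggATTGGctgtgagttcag

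In H2-K1 the capitals mark GGGATTCCC, the NF-kappaB type letters known as enhancer A, then TTTCACTT, the interferon-responsive letters beside it, then TGACGC, the X2 part of the SXY module, and ATTGG, its Y box. In B2m they mark a match to the interferon-stimulated response element (GAAA, any 2 bases, GAAA) and ATTGG. H2-D1 holds the first pair of H2-K1 motifs at the same spacing at chr17:35262924-35262951 on the plus strand, and its window was 90.4% identical to that of H2-K1 over 228 aligned positions. H2-T23 holds the response element on the opposite strand at chr17:36032806-36032835 (minus strand), and Erap1 holds it across the start site at chr13:74639839-74639868 (plus strand). In GENCODE M21 these 3 sites overlap an annotated UTR of their gene, so only the sites are printed.
H2-K1: GGGATTCCCcatctccacagTTTCACTT
H2-D1: GGGATTCCCcatctcctcagTTTCACTT
H2-T23: atcctactgcTTTCTCTTTCataaagacac
Erap1: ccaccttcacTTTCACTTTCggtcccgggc

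Both strands of 32851 RefSeq windows were searched. The response element was in 3.44% of them and in 3 of the 7 members with a window (B2m, Erap1 and H2-T23). TGACGC was in 7.40% of windows and in H2-K1 and H2-D1, and TGACGT was in 7.51% of windows and in 0 of the 7. ATTGG was in 37.4% of windows and in 6 of the 7, all but Erap1, and the GAS letters (TTC, any 3 bases, GAA) were in 8.30% of windows and 0 of the 7. TTTCACTT, in 1.60% of windows, was in Erap1, H2-D1 and H2-K1, and overlaps the response element in Erap1. GGGATTCCC, in 0.353% of windows, was in H2-D1 and H2-K1. These last 2 motifs were added after the sequences were read. A match is a description of letters only.

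B2m (chromosome 2, 122147686 to 122153083, plus strand, mm10), the gene of the shared light chain, was the highest of the 9 genes. It stood at 921 TPM in replicate 1 (877 to 965), 576 TPM in replicate 2 (298 to 1006) and 388 TPM in replicate 3 (359 to 419), a mean of 628 ± 270 TPM (SD, n = 3). Replicate 1 was highest and replicate 3 lowest, and the wide interval of replicate 2, from 12 counts, covered the level of both others. B2m ranked 70, 121 and 153 among 21764 protein-coding genes in replicates 1, 2 and 3.

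The classical heavy chain genes H2-K1 and H2-D1, which present peptides to CD8 T cells, came next. H2-K1 (chromosome 17, 33996017 to 34000333, minus strand) stood at 398, 332 and 199 TPM in replicates 1, 2 and 3, a mean of 310 ± 102 TPM (SD, n = 3). H2-D1 (chromosome 17, 35262730 to 35267499, plus strand) stood at 284, 224 and 131 TPM, a mean of 213 ± 77.1 TPM (SD, n = 3). H2-T23 (chromosome 17, 36029773 to 36032855, minus strand), which encodes Qa-1, a class I molecule read by natural killer cell receptors, stood at 70.2, 42.9 and 39.7 TPM, a mean of 50.9 ± 16.8 TPM (SD, n = 3). Each was highest in replicate 1 and lowest in replicate 3, and none of these genes, nor B2m, shares an exonic position with a gene of the opposite strand.

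**Figure D1:**
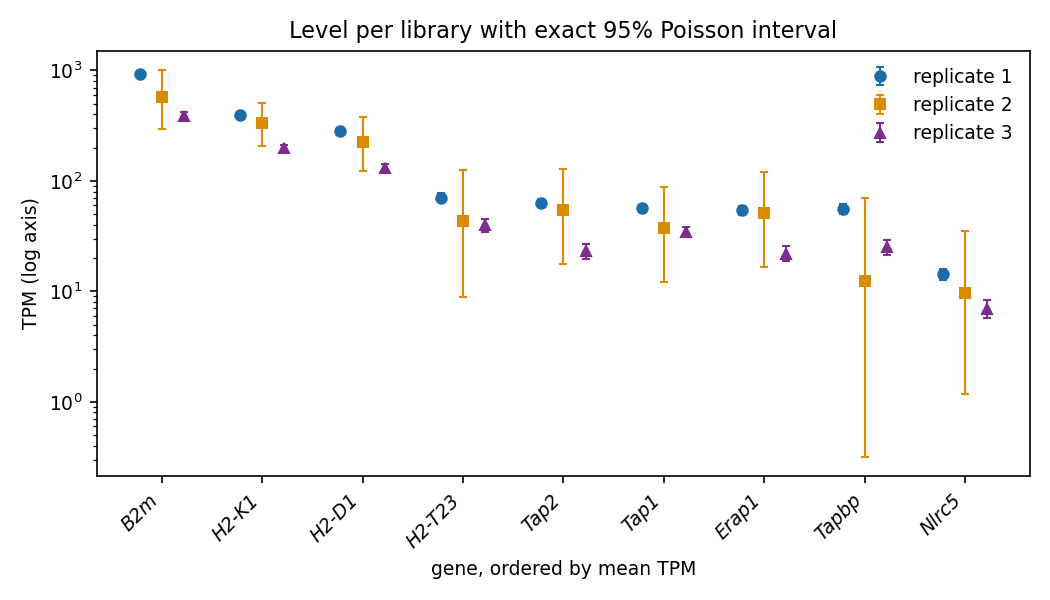
TPM (log axis) of the 9 genes, ordered by mean, in replicate 1 (circles), replicate 2 (squares) and replicate 3 (triangles), with exact 95% Poisson intervals. B2m is highest at 388 to 921 TPM, Nlrc5 is lowest by mean at 6.93 to 14.2 TPM, and the intervals of replicate 2 are the widest.

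Within a library the heavy chains kept a narrow order. H2-K1 was above H2-D1 by a log2 ratio of 0.49 in replicate 1 (interval 0.39 to 0.58), of 0.57 in replicate 2 (-0.48 to 1.66) and 0.60 for replicate 3 (0.46 to 0.74), a mean of 0.55 ± 0.06 (SD, n = 3), or 1.47-fold. The 3 ratios differed by less than their counting intervals, and the mean was 0.95 with principal transcript lengths (GENCODE M21). H2-D1 was above H2-T23 by a mean log2 ratio of 2.04 ± 0.33 (SD, n = 3), or 4.12-fold, and H2-K1 was above H2-T23 by 2.59 ± 0.32, or 6.04-fold. With principal transcript lengths these means were 1.36 and 2.31. As shares of the summed TPM of these 3 heavy chain genes, H2-K1 took 52.9%, 55.5% and 53.8%, H2-D1 37.7%, 37.4% and 35.5%, and H2-T23 9.33%, 7.15% and 10.7% in replicates 1, 2 and 3. The sums themselves fell in a wider range, at 752, 599 and 370 TPM.

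The level of B2m was close to that of the 3 heavy chains summed, with B2m over their sum at 1.22, 0.961 and 1.05 in replicates 1, 2 and 3, a mean of 1.08 ± 0.133 (SD, n = 3). This ratio depends on gene length: with the GENCODE M21 principal transcript of each gene, an alternative chosen with the data in view, it was 0.816, 0.644 and 0.695. It also depends on the chains summed. The sum leaves out 27 other class I and class I-like heavy chain genes, which together had 207, 177 and 164 TPM in replicates 1, 2 and 3. The B2m to H2-K1 log2 ratio was 1.21 in replicate 1 (1.12 to 1.30), 0.79 in replicate 2 (-0.36 to 1.88) and 0.97 for replicate 3 (0.82 to 1.11), a mean of 0.99 ± 0.21 (SD, n = 3). The intervals of replicates 1 and 3 did not overlap, so this ratio differed between those libraries beyond counting error. The mean fell to 0.30 with principal transcript lengths and turned to -0.61 without any length (CPM). B2m was above H2-D1 by a mean log2 ratio of 1.54 ± 0.17 and above H2-T23 by 3.58 ± 0.26 (SD, n = 3). These were 1.25 and 2.61 with principal transcript lengths, and B2m over H2-D1 turned to -0.042 without any length. The B2m to H2-T23 intervals of replicates 1 and 3 did not overlap either (3.56 to 3.87 against 3.07 to 3.51).

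**Figure D2:**
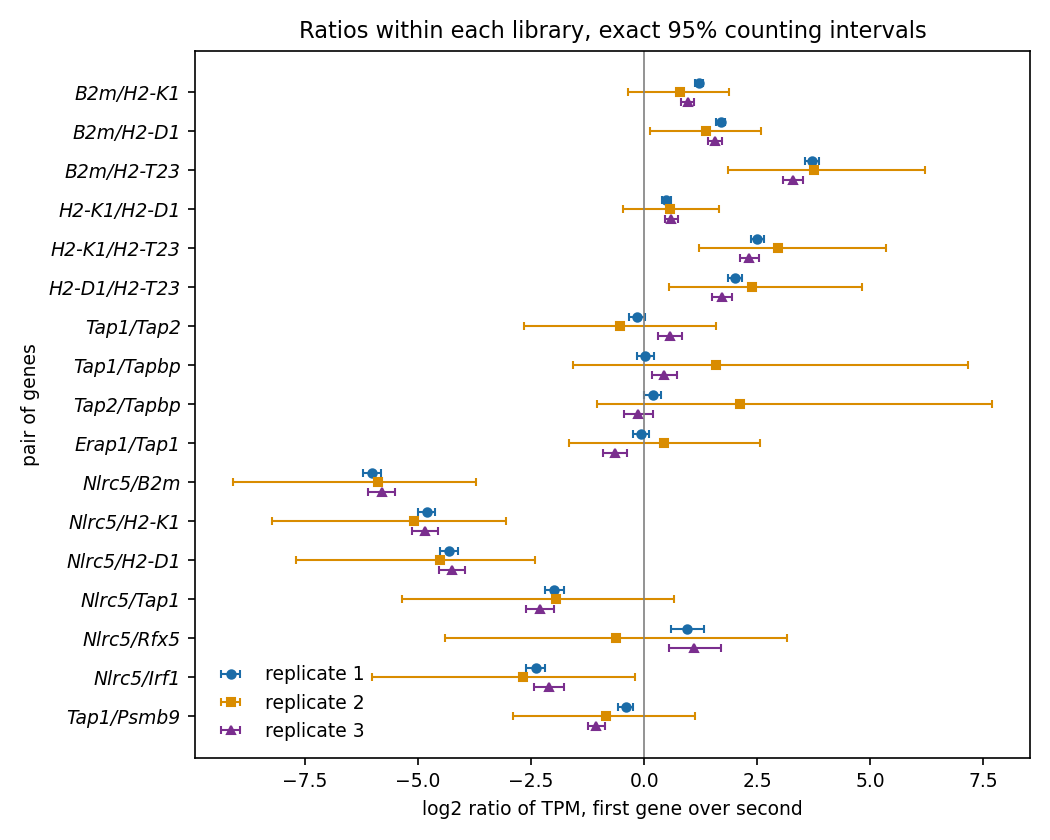
Log2 ratio of TPM within a library for 17 pairs of genes (first over second), in replicates 1, 2 and 3, with exact 95% counting intervals and a line at 0. Ratios of B2m to the heavy chains lie above 0 and ratios of Nlrc5 to B2m, H2-K1, H2-D1 and Tap1 below it, while Tap1 to Tap2 falls on both sides, at -0.16, -0.53 and 0.57.

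The peptide transporter genes stood far below the classical heavy chains. Tap1 (chromosome 17, 34187553 to 34197225, plus strand) had 56.5, 37.7 and 34.4 TPM in replicates 1, 2 and 3, a mean of 42.9 ± 11.96 TPM (SD, n = 3). Tap2 (chromosome 17, 34203527 to 34216321, plus strand), which encodes the partner subunit of the same transporter, had 63.2, 54.6 and 23.1 TPM, a mean of 47.0 ± 21.1 TPM (SD, n = 3). Replicate 1 was highest for both genes and replicate 3 lowest.

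Their order was not the same in every library. The Tap1 to Tap2 log2 ratio was -0.16 in replicate 1 (-0.33 to 0.01), -0.53 in replicate 2 (-2.65 to 1.59, from 5 counts of each) and 0.57 for replicate 3 (0.31 to 0.84). The mean was -0.04 ± 0.56 (SD, n = 3; exact two-sided sign-flip p = 1), and it turned to 0.72 with principal transcript lengths. Tap2 was as high as Tap1 in replicate 1 within counting error and lower in replicate 3, where the interval held no 0. For Tap2, 18.5% of the exonic length lies under opposite-strand exons, against 3.87% for Tap1, and the part of this overlap in the ratio was not tested.

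Tapbp (chromosome 17, 33915899 to 33929288, plus strand) encodes tapasin, which bridges TAP and the empty class I molecule. It had 55.5 TPM in replicate 1 (50.2 to 61.3), 12.5 TPM in replicate 2 (0.317 to 69.8, from 1 count) and 25.2 TPM in replicate 3 (21.5 to 29.4), with 20.2% of its exonic length under opposite-strand exons. Erap1 (chromosome 13, 74639872 to 74691875, plus strand), the aminopeptidase that trims peptides in the endoplasmic reticulum, had 54.1, 51.4 and 21.99 TPM in replicates 1, 2 and 3, a mean of 42.5 ± 17.8 TPM (SD, n = 3), with no such overlap in the deposited exons. Replicate 1 was highest for both. Erap1 over Tap1 was at a log2 ratio of -0.06 in replicate 1 (-0.24 to 0.11), 0.45 in replicate 2 (-1.67 to 2.57) and -0.64 for replicate 3 (-0.91 to -0.38), and Tap1 over Tapbp at 0.03, 1.59 and 0.45. Principal transcript lengths moved the mean of Erap1 over Tap1 from -0.09 to -1.47. The principal transcript of Erap1 (5644 bp) is longer than the deposited length over which its fragments were counted (4014 bp). The value of -1.47 can therefore understate Erap1. In replicate 1 the ratios of the neighbours H2-T23, Tap2, Tap1, Erap1 and Tapbp in the order of mean TPM all had intervals that held 0, so adjacent genes in that order could not be told apart there. The interval of the H2-T23 level in replicate 1 (63.7 to 77.1 TPM) lay above those of Tap1 (52.3 to 61.0), Erap1 (49.3 to 59.3) and Tapbp. In replicate 3, H2-T23 was above Tap2 by 0.78 (0.49 to 1.08) and Tap1 above Erap1 by 0.64 (0.38 to 0.91).

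Nlrc5 (chromosome 8, 94434356 to 94527272, plus strand), the class I transactivator, was the lowest of the 9 genes by mean, although it ranked above most protein-coding genes. It had 259, 2 and 116 counts, or 14.2 TPM in replicate 1 (12.6 to 16.1), 9.72 TPM in replicate 2 (1.18 to 35.1) and 6.93 TPM in replicate 3 (5.73 to 8.31), a mean of 10.3 ± 3.69 TPM (SD, n = 3). Its rank among 21764 protein-coding genes was 5338, 5396 and 5468. Replicate 1 was highest again, and 0.918% of the exonic length of Nlrc5 lies under opposite-strand exons.

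Genes that Nlrc5 is known to activate were at many times its level in each library. H2-K1 TPM was 27.96-, 34.2- and 28.7-fold that of Nlrc5 in replicates 1, 2 and 3, H2-D1 TPM 19.9-, 23.1- and 18.9-fold, and B2m TPM 64.6-, 59.3- and 56.02-fold. The mean log2 ratio of Nlrc5 to B2m was -5.90 ± 0.10, to H2-K1 -4.91 ± 0.16, to H2-D1 -4.36 ± 0.15 and to Tap1 -2.08 ± 0.20 (SD, n = 3). With principal transcript lengths the ratio to Tap1 was -2.81 and that to H2-K1 -5.44. In each of these 4 pairs the ratios of replicates 1 and 3 differed by less than their counting intervals.

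Among other regulators, Ciita, the class II transactivator and a relative of Nlrc5, had 1, 0 and 3 counts in replicates 1, 2 and 3. The log2 ratio of Nlrc5 to Ciita was 7.32 in replicate 1 (4.83 to 12.63) and 4.58 in replicate 3 (3.00 to 6.88). Rfx5, a subunit of the factor that binds the X box of class I and class II promoters, had 7.39, 15.02 and 3.23 TPM, with 26.8% of its exonic length under opposite-strand exons. Nlrc5 over Rfx5 was at 0.95, -0.63 and 1.10, the value of replicate 2 resting on 2 counts of each. Irf1, an interferon-induced activator of class I genes, had 75.2, 62.3 and 29.7 TPM and was above Nlrc5 in each library, with a mean log2 ratio of Nlrc5 to Irf1 of -2.39 ± 0.29 (SD, n = 3), or -3.12 with principal transcript lengths.

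Of 18 pairs compared, 14 had the same sign in every library that gave a ratio. Each of these with 3 ratios gave an exact two-sided sign-flip p = 0.25, the smallest that 3 libraries allow, and 0.346 after Benjamini-Hochberg adjustment over the 18 pairs. This design cannot reach 0.05, and a p-value here speaks only of the spread among these 3 samples, which may be technical.

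All 9 members passed the filter on low counts and were tested for spread between the libraries. A chi-square test of each gene's counts against scaled library totals, adjusted over all genes tested (Benjamini-Hochberg), called 4681 of 7406 genes (63.2%), and 6 of the 9 members, a share near that of all genes. The called members were B2m (adjusted p = 1.48e-12), Tap2 (6.66e-07), H2-D1 (1.00e-06), H2-K1 (6.55e-05), Erap1 (2.79e-04) and Tapbp (0.00899). H2-T23 (adjusted p = 0.621), Tap1 (0.609) and Nlrc5 (0.234) did not pass, which does not show that they were equal. In replicate 2 a few counts stand behind each value, so the chi-square approximation is rough there.

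Fewer genes were called when the tested set and its scaling changed. With only genes free of opposite-strand exons in the test and its scaling, 549 of 4136 genes (13.3%) and 0 of the 5 members in that set were called, with adjusted p from 0.0779 for H2-T23 to 0.793 for H2-D1; 2 of the 5, H2-K1 and H2-T23, had an unadjusted p under 0.05. Without replicate 2, 4167 of 11003 genes (37.9%) were called, and 4 members: B2m, Tap2, Tap1 and Erap1. Without replicate 1 or without replicate 3, 0 of the 9 members were called, and 0 had an unadjusted p under 0.05, where the test called 9.47% and 3.65% of all genes.

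**Figure D3:**
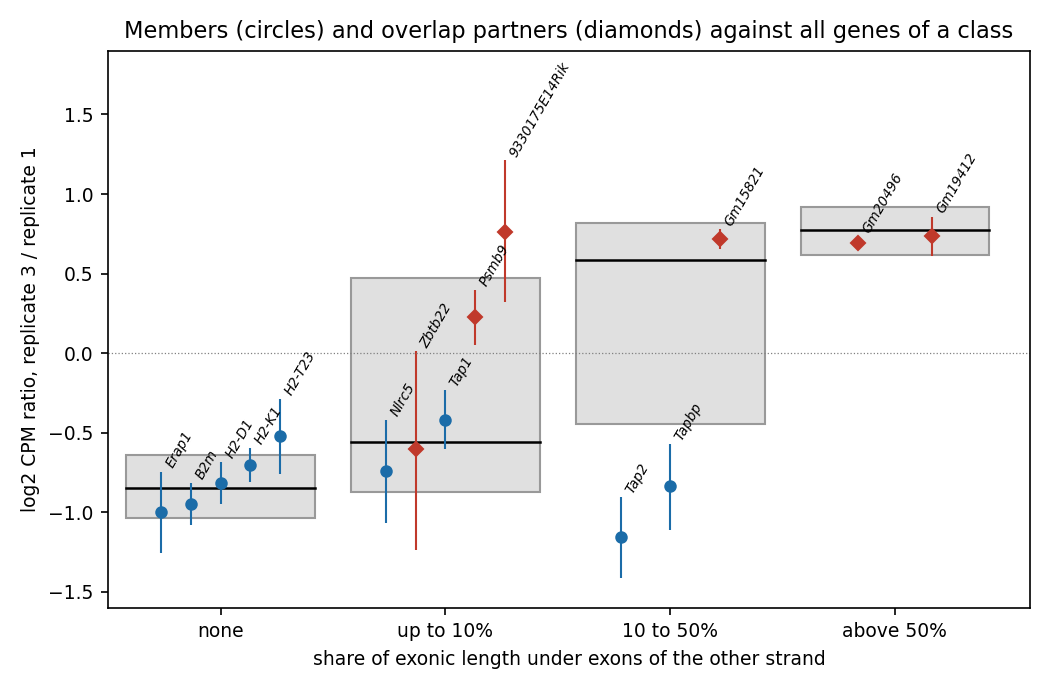
Log2 CPM ratio of replicate 3 to replicate 1 for the 9 members (circles) and the genes whose exons overlap theirs (diamonds), with exact 95% intervals, by share of exonic length under opposite-strand exons. Boxes span the quartiles and lines the median of all genes of a class with at least 50 counts. All 9 members lie below 0, and the opposite-strand partners, unlike Zbtb22 of the same strand, lie above it.

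All 9 members had a lower CPM in replicate 3 than in replicate 1, with log2 ratios from -0.42 for Tap1 to -1.15 for Tap2. The median over 10019 genes with at least 50 counts in both libraries together was -0.72, so a negative ratio was common. Among 5857 genes without opposite-strand exons the median was -0.84 (quartiles -1.04 and -0.64). B2m (-0.94), Erap1 (-0.998), H2-D1 (-0.82) and H2-K1 (-0.70) lay within these quartiles, and H2-T23 (-0.52) lay above them. Tap1 (-0.42) and Nlrc5 (-0.74) lay within the quartiles (-0.87 and 0.47) of the class with up to 10% overlap, which holds 2045 genes.

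Tap2 and Tapbp lay below most genes with their extent of overlap, as did some other pathway genes. The 1646 genes with 10 to 50% of their exonic length under opposite-strand exons had a median of 0.59 (quartiles -0.44 and 0.82). Of these genes, 67.4% were above 0. Tap2 was at -1.15 (-1.41 to -0.90) and Tapbp at -0.84 (-1.11 to -0.57), both below the lower quartile. Among other named pathway genes of this class, Rfx5 (-0.89), H2-Q4 (-0.62) and H2-T22 (-0.53) also lay there, while Rfxank (0.90) lay above the upper quartile. The opposite-strand partners of Tapbp and Tap2 went the other way. Gm19412, opposite Tapbp, was at 0.73 (0.61 to 0.86), and Gm20496 and Gm15821, opposite Tap2, at 0.69 (0.66 to 0.73) and 0.72 (0.65 to 0.78). Of their exonic length, 82.3%, 52.9% and 44.0% lies under opposite-strand exons, for Gm20496 those of both Psmb8 and Tap2. Each of these partners lay within the quartiles of its own class, so a rise was usual for such genes. With more than 50% overlap, the median was 0.77 (quartiles 0.61 and 0.92) and 93.0% of genes were above 0. Psmb9, opposite Tap1, was at 0.23 (0.05 to 0.40) and 9330175E14Rik, opposite Nlrc5, at 0.76 (0.32 to 1.21).

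**Figure D4:**
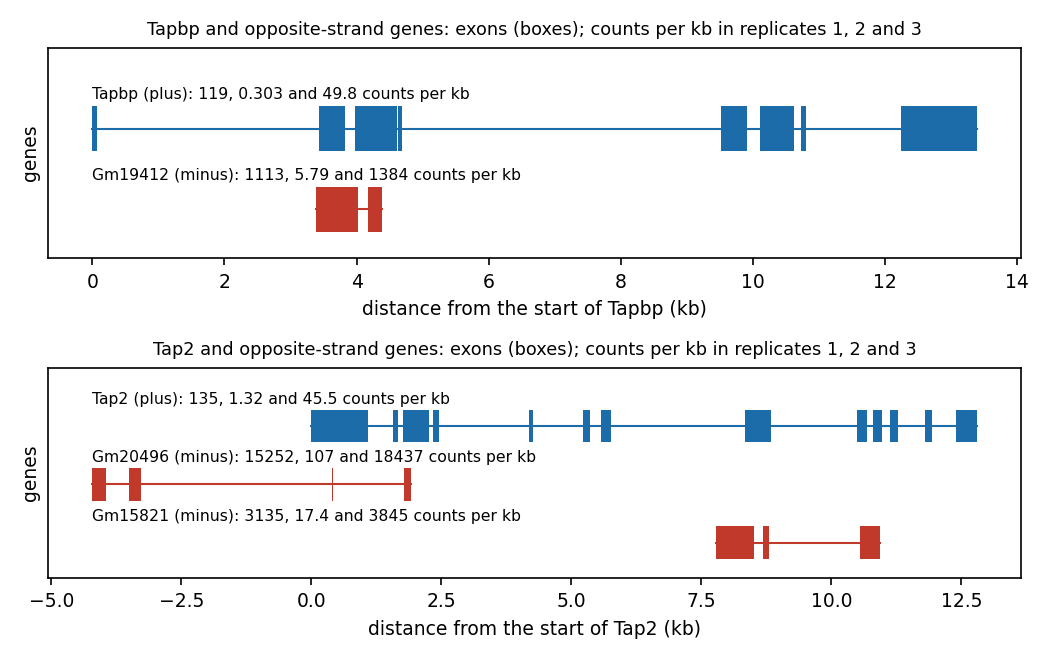
Exons (boxes) of Tapbp and Tap2 and of the opposite-strand genes that overlap them, by distance from the start of the member in kb, with counts per kb of exonic length in replicates 1, 2 and 3 above each gene. Gm19412 reaches 1113 counts per kb in replicate 1 against 119 for Tapbp, and Gm20496 15252 against 135 for Tap2.

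The opposite-strand partners of Tapbp and Tap2 had more counts per kb of exonic length than the members they overlap. Gm19412, annotated as antisense, shares 665 bp with Tapbp and had 962, 5 and 1196 counts in replicates 1, 2 and 3, or 9.36-, 19.1- and 27.8-fold the counts per kb of Tapbp. Gm20496, annotated as antisense, shares 165 bp with Tap2 and 186 bp with Psmb8. Over all its exons it had 10112, 71 and 12224 counts, or 113-, 81.0- and 405-fold the counts per kb of Tap2. Gm15821, a long noncoding RNA gene that shares 533 bp with Tap2, had 3793, 21 and 4653 counts, or 23.1-, 13.1- and 84.5-fold. In CPM, these 3 partners were highest in replicate 3, where Tapbp and Tap2 were below replicate 1. Whether fragments of one strand were counted for the other at these exons was not tested.

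Tap1 and Psmb9 are neighbours read in opposite directions, and their annotated exons share 212 bp. Psmb9, an interferon-induced catalytic subunit of the immunoproteasome, had 75.3, 67.7 and 71.5 TPM in replicates 1, 2 and 3. The Tap1 to Psmb9 log2 ratio was -0.41 in replicate 1 (-0.58 to -0.25), -0.84 in replicate 2 (-2.90 to 1.13) and -1.06 for replicate 3 (-1.25 to -0.86), and the intervals of replicates 1 and 3 did not overlap. Nlrc5 shares 78 bp with 9330175E14Rik, which had 78, 1 and 99 counts, and Tapbp shares 61 bp with Zbtb22 on its own strand, which had 69, 0 and 34.

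The rest of the pathway was followed in 5 lists of 67 genes. In all, 41 of the 67 were at 1 TPM or more in every library, against 6394 of 21764 protein-coding genes (29.4%). In replicates 1 and 3, 47 were, against 9636 (44.3%). In replicate 2 this floor asks little, since 1 count gave H2-T22 12.1 TPM and H2-Q7 9.68 TPM. The lists were chosen with earlier results of these data known, so a higher share than over all genes is no test. The median of mean TPM was 12.3 over the 67 genes, 47.0 over the 9 members, and 6.74 over the 13262 protein-coding genes with a count.

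**Figure D5:**
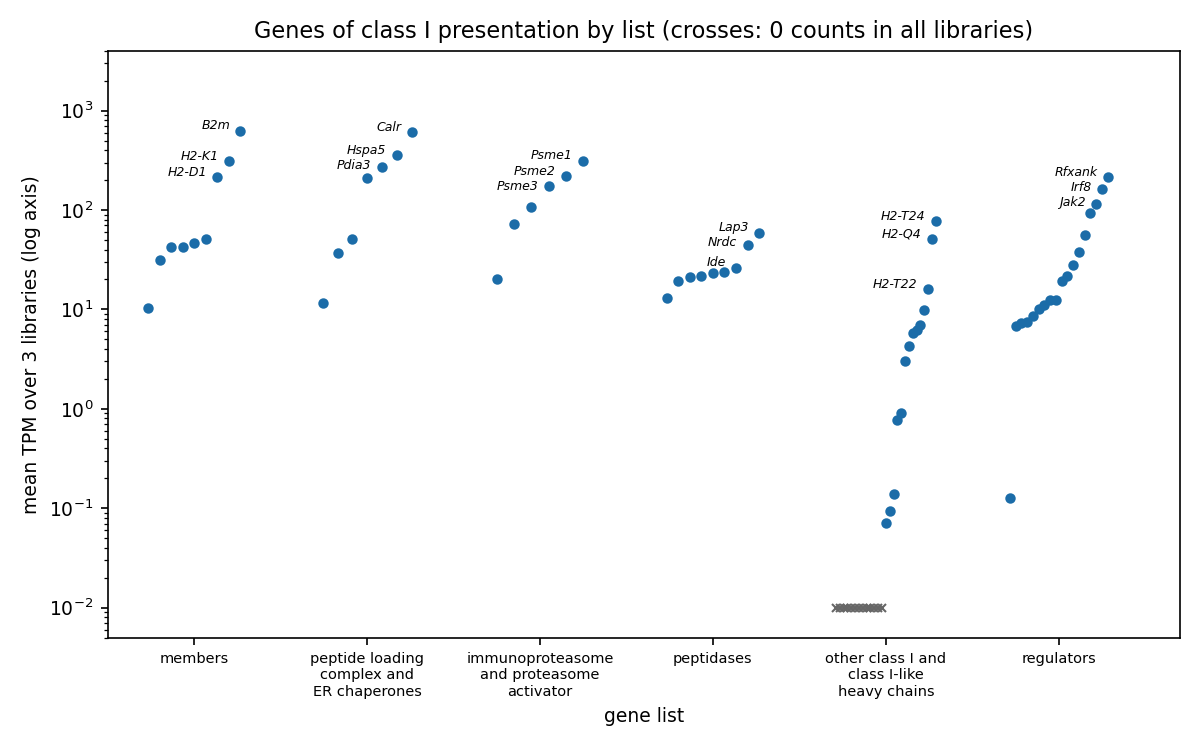
Mean TPM over the 3 libraries (log axis) of each gene in the member list and the 5 pathway lists, ordered within a list, with the highest 3 named. Crosses at the bottom mark genes with 0 counts in all libraries, all of them other class I and class I-like heavy chains (13 of 27).

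Chaperones of peptide loading were among the highest genes of the pathway. All 7 genes of this list were at 1 TPM or more in every library, with a median of mean TPM of 209, and 5 of the 7 differed between libraries in the test over all genes, which called 63.2%. Calr, which holds the heavy chain in the loading complex, had 822, 573 and 433 TPM in replicates 1, 2 and 3, near the level of B2m. This nearness depends on length, since Calr had 5067, 40 and 2458 counts over 2880 bp and B2m 1695, 12 and 658 over 860 bp. Pdia3, the disulfide partner of tapasin, had 388, 263 and 156 TPM, and Canx, which receives new heavy chains, 244, 264 and 118 TPM. Hspa5, a general chaperone of the endoplasmic reticulum, had 444, 430 and 189 TPM.

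Of the 6 immunoproteasome and proteasome activator genes, 5 were at 1 TPM or more in every library, and Psmb10, named outside the rule because it was the exception, had 143, 0 and 73 counts. Of these 5, all tested, 4 differed between libraries, against 63.2% of all genes tested. The activator subunits Psme1 and Psme2 had 382, 355 and 204 TPM and 251, 304 and 103 TPM. Psme3, of the nuclear activator, had 242, 182 and 93.2 TPM. Psmb8, a catalytic subunit of the immunoproteasome with 6.80% of its exonic length under opposite-strand exons of Gm20496, had 179, 60.4 and 83.3 TPM.

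All 9 further peptidases were at 1 TPM or more in every library, with a median of mean TPM of 23.1, and 5 of 9 differed between libraries (63.2% over all genes tested). Lap3, an interferon-induced leucine aminopeptidase, had 94.5, 40.0 and 42.9 TPM, and Nrdc had 49.9, 52.0 and 32.6 TPM. Ide, insulin-degrading enzyme, had 40.3, 21.3 and 17.4 TPM, and Lnpep, the endosomal relative of Erap1, 32.1, 23.9 and 15.9 TPM. In TPM with deposited lengths, Erap1 was above Lnpep in all 3 libraries. The counts were 465, 5 and 174 against 356, 3 and 162, and this difference was not tested.

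Other class I and class I-like heavy chain genes were mostly low. Of 27, 13 had 0 counts in all libraries and 5 were at 1 TPM or more in every library: H2-T24, H2-Q4, H2-T22, Ulbp1 and H2-Q7, the last named after its values were seen. H2-T24 had 79.4, 56.8 and 93.9 TPM in replicates 1, 2 and 3, above H2-T23 in each (with 3 counts of each gene in replicate 2), and was the 1 gene of the 5 that differed between libraries, where the test called 63.2% of all genes. Its log2 ratio of replicate 3 to replicate 1 was 0.54, without opposite-strand exons, where H2-T23 was at -0.52. H2-Q4 had 59.6, 63.6 and 31.5 TPM with an opposite-strand overlap of 19.1%, and H2-T22 had 22.98, 12.1 and 12.9 TPM with 29.4%. Ulbp1, a ligand of the natural killer receptor NKG2D, had 7.08, 18.4 and 4.00 TPM.

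Heavy chain genes share stretches of sequence with related genes, to unlike extents, which bears on how well fragments can be assigned. In GENCODE M21 transcripts, 90.4% of the 50-base words of H2-K1, 87.2% of H2-D1 and 85.5% of H2-T23 occur in no other gene on either strand, and 99.0%, 96.4% and 96.8% of the 100-base words. The shares at 50 bases were 100% for B2m, 96.7% for Tap1, 88.4% for Tap2, 99.7% for Nlrc5, 89.3% for Erap1, which shares words with Cast, and 76.8% for Tapbp, which shares 20.3% with Gm19412. H2-T22 was at 46.5%, H2-Q4 at 63.6% and H2-Q7 at 73.5%, so their levels are uncertain. How the authors' alignment placed fragments of shared words is not given in the sources used here, so levels of the heavy chain genes are uncertain to that extent.

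Of the 18 regulators, 15 were at 1 TPM or more in every library, with a median of mean TPM of 15.8, and 9 of 15 tested differed between libraries (63.2% over all genes tested). Irf8, an interferon-induced factor, had 224, 164 and 97.7 TPM, Jak2, a kinase of the interferon gamma receptor, 143, 140 and 59.0 TPM, and Nfkb1, a precursor of an NF-kappaB subunit, 132, 92.4 and 57.7 TPM. Rfxank, a subunit of the same complex as Rfx5, had 163, 229 and 247 TPM with 33.8% of its exonic length under opposite-strand exons, and its log2 ratio of replicate 3 to replicate 1 was 0.90. Rfxank was highest in replicate 3, where Nlrc5, Irf1, Irf8, Jak2 and Nfkb1 were lowest. The part of the opposite-strand overlap in this difference was not tested.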

How the data were processed

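Gene counts of 3 libraries of mouse Th1 cells, 1 group with replicate numbers from the labels, were analysed. Total RNA-seq is the assay in the labels, but the linked library protocol carries poly(A)+ RNA in its name. The deposited values are raw whole-number counts of fragments, made per the file headers by the authors with featureCounts 1.4.6-p4 over exons of GENCODE M13, strand setting 1, pairs with both ends mapped, on alignments named star2. Per the labels, the build is mm10. For the kit, aligner version and trimming, the details were not given in the sources used here. The deposited gene length, another value of these files, gave TPM. No columns from any other series entered.

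The 9 members and all lists were chosen with earlier results of these data known. Named genes were the 9 members, the genes whose exons overlap them, the genes paired with them and up to 4 genes of each list by mean TPM. Genes of the marker lists were named outside this rule, and the values of 1 of them are not reported here. Symbols matched 50376 of 50600 identifiers, 2 listed genes through RefSeq synonyms (Ero1a and Nrdc). Exonic overlap came from bedtools 2.31.1, and 8189 genes had opposite-strand exons. Promoter windows are RefSeq, GRCm38.p6.

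With 1 group, no edgeR quasi-likelihood test between groups was possible. Spread was tested per gene by a chi-square statistic (2 degrees of freedom) against library totals scaled by TMM (edgeR 4.0.16), over genes kept by filterByExpr, with Benjamini-Hochberg adjustment at 0.05. The test was checked on simulated counts. Ratios within a library have exact Clopper-Pearson 95% intervals conditional on the sum of both counts, levels have exact Poisson intervals, and pairs were tested over libraries by an exact two-sided sign-flip test. Totals of 4742025, 50627 and 3543816 counts make 1 count worth 0.211, 19.8 and 0.282 CPM. Alternatives used DESeq2 1.42.0 size factors, library totals, other filters, units and lengths, and left out each replicate. Python 3.11.15 (scipy 1.17.1) and R 4.3.3 were used.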

Additional observations from a re-analysis of the deposited data

How the results depend on the processing

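The spread between libraries depended on the gene set and the libraries. The chi-square test called 4681 genes in all, 549 with only genes free of opposite-strand exons, and 271 (without replicate 3) to 4167 (without replicate 2) when a replicate was left out, with 677 without replicate 1. The members called were 6, 0 with only genes free of opposite-strand exons, a set added for the members after the data were seen that tests 5 of them, and 0 to 4 when a replicate was left out. DESeq2 size factors, library totals and no filter called 5, 9 and 6 members, where 54.3%, 88.5% and 30.6% of all genes tested were called. The common biological coefficient of variation (edgeR), 0.341, ranged from 0.241 to 0.365 with a replicate left out and was 0.166 with only genes free of opposite-strand exons.

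Length decided some ratios. Without length (CPM), B2m over H2-K1 turned from a mean log2 ratio of 0.99 to -0.61, B2m over H2-D1 from 1.54 to -0.042, and Tap1 over Tap2 from -0.04 to 0.49. Tap1 over Tap2 was 0.058 from summed counts, 0.72 with the principal transcript length, and -0.35 to 0.21 with a replicate left out. Erap1 over Tap1, at -0.09, was -0.35 to 0.19 with a replicate left out, and -1.47 with the principal transcript length. For Erap1 that length (5644 bp) exceeds the deposited length behind its counts (4014 bp). Principal transcript lengths also moved B2m over H2-K1 to 0.30. The means of the other pairs kept their sign in every alternative, though Tap2 over Tapbp fell from 0.73 to 0.029 without replicate 2. Within single libraries, Tap2 over Tapbp and Nlrc5 over Rfx5 did not keep 1 sign. Scaled over genes free of opposite-strand exons, mean TPM ran from 35.2 for Nlrc5 to 2116 for B2m, in the place of 10.3 and 628. As FPKM it ran from 4.98 to 302. At a floor of 5 TPM 36 of the 67 pathway genes passed in every library, in the place of 41. Replicate 2, with 50627 counts, limits each result that needs all 3 libraries. No paired analysis was possible because the series holds 1 group.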

Other observations

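Class II antigen presentation genes, the counterpart of the class I pathway in professional antigen-presenting cells, were mostly at few counts, apart from Cd74. Of 7 markers only Cd74, the invariant chain, was at 1 TPM or more in every library, at 65.3, 87.8 and 30.2 TPM in replicates 1, 2 and 3, and 4 of the 7 reached 1 TPM in both replicate 1 and replicate 3. H2-Aa, the alpha chain gene, had 0, 0 and 1 counts, and H2-Ab1, the beta chain gene, had 29, 0 and 25. H2-Eb1 had 6, 0 and 5 counts, H2-DMa 20, 0 and 4, and H2-DMb1 2, 0 and 0. In replicates 1 and 3, H2-K1 had 2224 and 1022 counts.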
